A study of Caenorhabditis elegans with 2 samples.

Results

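Nuclear hormone receptor genes of Caenorhabditis elegans were examined for binding of BED-1, a zinc finger protein of the BED type. The set held the protein-coding genes named nhr with a number, together with daf-12, odr-7, unc-55, sex-1 and fax-1, and without nhr-23 and nhr-25. It came to 272 of 19973 protein-coding genes. Chromosome V carried 167 of them (61.4%, against 25% of all protein-coding genes), and IV, X, I, II and III carried 33, 26, 23, 15 and 8.

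Nuclear hormone receptors are transcription factors that bind DNA through a pair of zinc fingers and carry a second domain that can bind a small fat-soluble molecule such as a steroid or fatty acid. Nematodes have many more of them than insects or vertebrates. Most are thought to descend from an ancestor related to vertebrate HNF4, and many of those lie in tandem clusters, while a smaller group has clear relatives across animals. In the worm, receptors of both kinds act in fat metabolism, dauer formation, defence and neuron identity.

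The data came from chromatin immunoprecipitation with sequencing (ChIP-seq) in 2 biological replicates of 1 group. The worms were of strain RW12201, in which CRISPR had inserted a TY1, EGFP and 3xFLAG tag into the endogenous bed-1 gene on chromosome V, and an antibody against GFP was used for the pull-down. Whole young adults, aged 63 hours after L1 larvae had been starved to synchronise them, were sheared by sonication. Both replicates carried the tag, an experiment named by the labels as a possible control was not analysed here, and in whole worms binding in fewer cells and weaker binding per cell cannot be told apart.

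The authors deposited a ranked list of 120637 peaks for both replicates together and a final list of 589 peaks taken from it, next to a conservative final list of 523. Each replicate had its own ranked list (58090 and 61509 peaks) and final list (91 and 99 peaks). Each peak has a signal, which is the authors' value of its strength, and a rank-based irreproducible discovery rate (IDR), which estimates how likely a peak is not to be shared between data sets. A ranked peak passed at an IDR of at most 0.01. The read depth is unknown from these files, and no test between groups was possible with 1 group. Every receptor gene was given its strongest ranked peak with a summit within 1000 bases of an annotated start, and its percentile among all protein-coding genes that had such a peak.

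Of the 272 receptor genes, 250 had a ranked peak (91.9%), against 90.6% of all protein-coding genes, so having such a peak did not set the family apart. The 250 genes were served by 246 distinct peaks, since 4 pairs of neighbours shared one: nhr-201 and nhr-202, nhr-139 and nhr-163, nhr-148 and nhr-263, and nhr-259 and nhr-73. Only 3 receptor genes had a peak of the larger final list, namely nhr-254, nhr-141 and nhr-131, all on V. That is 1.10% of the family (exact 95% binomial interval 0.228 to 3.19%, counting error only), against 1.63% of all protein-coding genes. On V the background was 1.30%, and on the other chromosomes, where none of 105 receptor genes had such a peak, it was 1.74%. The conservative list kept nhr-254 and nhr-141, and neither replicate's own final list held a peak of any receptor gene. Those lists held only 91 and 99 peaks, and the share over all genes was not counted for them. Whether the absence sets the family apart therefore cannot be told from these counts.

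The sequence under the strongest summits is shown for the 3 genes of the final list, for nhr-121, which came next, and for nhr-177, which had the weakest peak of the family. Each line gives 151 bases of the plus strand of ce11 (WBcel235) centred on the summit. Capitals mark copies of the words AGGCA or CTACAGTA on either strand, which were picked after the sequences were seen. The windows lie at V:392745-392895 for nhr-254, V:7443588-7443738 for nhr-141, V:495728-495878 for nhr-131, III:2455671-2455821 for nhr-121 and V:1611091-1611241 for nhr-177.
nhr-254: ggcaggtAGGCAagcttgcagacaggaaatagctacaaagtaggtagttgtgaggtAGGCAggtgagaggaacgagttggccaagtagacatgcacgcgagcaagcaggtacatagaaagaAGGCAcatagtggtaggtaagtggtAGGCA
nhr-141: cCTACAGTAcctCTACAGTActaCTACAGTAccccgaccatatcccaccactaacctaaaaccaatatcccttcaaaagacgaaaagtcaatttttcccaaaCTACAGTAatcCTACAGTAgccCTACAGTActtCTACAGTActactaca
nhr-131: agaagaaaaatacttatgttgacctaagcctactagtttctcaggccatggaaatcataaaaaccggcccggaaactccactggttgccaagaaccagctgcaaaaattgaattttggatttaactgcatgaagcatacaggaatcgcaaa
nhr-121: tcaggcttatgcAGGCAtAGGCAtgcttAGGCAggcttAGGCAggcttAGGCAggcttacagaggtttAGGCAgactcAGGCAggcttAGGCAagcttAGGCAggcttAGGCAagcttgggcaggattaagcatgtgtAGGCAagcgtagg
nhr-177: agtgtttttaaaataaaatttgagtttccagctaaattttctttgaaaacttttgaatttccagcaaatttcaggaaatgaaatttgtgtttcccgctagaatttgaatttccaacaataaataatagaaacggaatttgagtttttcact

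The windows of nhr-254 and nhr-121 held 4 and 11 copies of AGGCA, that of nhr-141 held 7 copies of CTACAGTA, and those of nhr-131 and nhr-177 held neither word. Around nhr-254 all 31-base words were unique in the genome, whereas the share was 28.8% around nhr-121 and 11.2% around nhr-141, whose 201 central bases were all masked as repeats in the reference. At least 3 copies of CTACAGTA within 100 bases of the summit were found at 2 of 250 receptor genes (nhr-141 and nhr-122) and at 47 of 18096 protein-coding genes (0.260%), and the 47 had a median percentile of 48.5. At least 4 copies of AGGCA were found at 3 receptor genes (nhr-254, nhr-121 and nhr-119) and at 115 of all genes (0.636%), with a median percentile of 64.3 and 18 genes (15.7%) in the top 10%.

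nhr-254 (WBGene00022640, V:392628-395120, plus strand) had the strongest peak of the family, with a signal of 79.4 (percentile 99.1, IDR 0.00382) and the summit 192 bases downstream of its only annotated start. Its own signals were 37.8 in replicate 1 and 33.4 in replicate 2, at percentiles of 97.7 and 91.3 of the replicates' own lists. It belongs to a small group of 3 receptor genes near the left end of V, where nhr-253, the next gene, had 39.8 and nhr-252 had 26.2. nhr-141 (WBGene00017787, V:7444661-7446833, plus strand) lies outside the clusters. Its peak had a signal of 69.2 (IDR 0.00636), but the summit lay 998 bases upstream, just inside the window. Its replicate signals differed, with 19.1 (percentile 44.4) in replicate 1 and 37.0 (percentile 95.6) in replicate 2. For nhr-131 (WBGene00003721, V:494370-497297, plus strand) the signal was 68.2 (IDR 0.00988) with the summit 28 bases downstream of an internal start, and replicate signals of 28.5 and 38.0 (percentiles 87.0 and 96.2). All 3 were in the top 10% of replicate 2's list, and of the 3 only nhr-254 was in the top 10% of replicate 1's.

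Just outside the threshold stood nhr-121, with a signal of 66.9 and an IDR of 0.0145, and replicate signals of 32.1 and 33.7. Counted by the strongest peak, 10 of 272 receptor genes had an IDR of at most 0.05, against 1362 of 19973 protein-coding genes. Among the genes next in signal, nhr-15 had 63.7, and its summit lay nearer to the start of phf-10, which encodes a PHD finger protein. The peak of nhr-255 (58.3) lay over a non-coding gene. nhr-213 had 61.2, nhr-291 60.4, nhr-142 60.2, nhr-27 56.8, nhr-34 56.1, nhr-79 55.6, nhr-88 55.5, nhr-17 55.3 and nhr-137 55.2. The order by signal was not the order by IDR, since nhr-213 had an IDR of 0.105 and nhr-137 one of 0.0216.

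Of these 15 strongest genes, 8 lay on V, 12 had fully unique windows, and all had a ranked peak in each replicate. In replicate 1's own list 5 of them were in the top 10% of genes, and in replicate 2's 10 were. Among the 15, the gap in percentile was widest for nhr-79 and nhr-88. nhr-79 had signals of 6.64 in replicate 1 and 32.5 in replicate 2 (percentiles 0.829 and 89.96), and nhr-88 had 11.4 and 33.6 (percentiles 6.52 and 91.7). nhr-17 went the other way, with 35.4 and 21.6. Of the 272 receptor genes, 166 had a peak in both replicates' lists and 18 in neither, against 12105 and 2333 of 19973 protein-coding genes. The median difference between a gene's 2 percentiles was 22.8 points in the family and 23.6 for all genes. Spearman's rho between the replicates' signals was 0.145 over 166 receptor genes and 0.246 over 12105 protein-coding genes, which share the same 2 libraries, so the rank of a single receptor gene was poorly repeated.

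**Figure D1:**
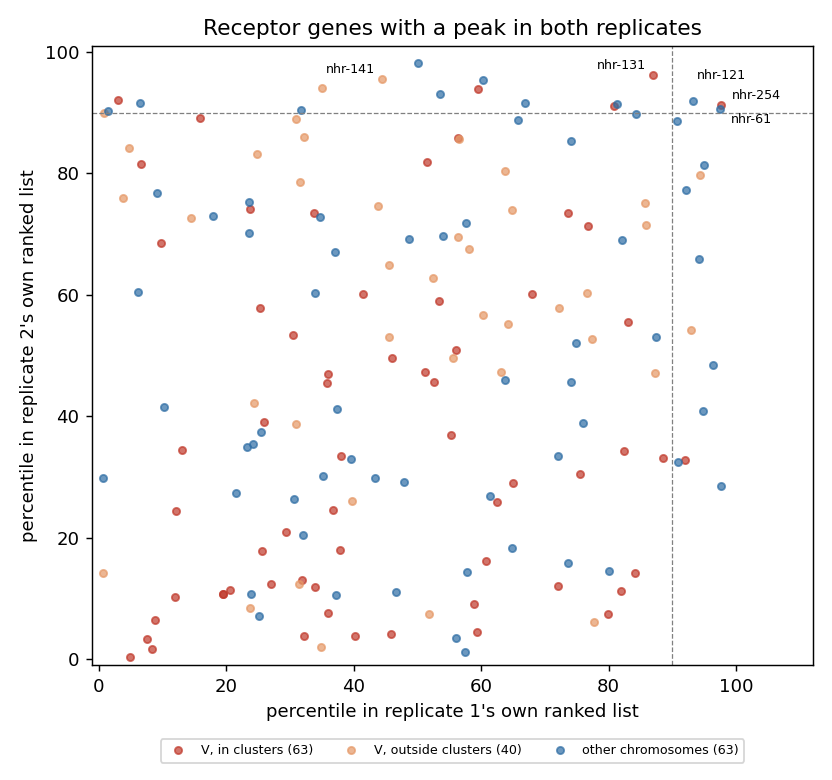
Percentile of each receptor gene's strongest peak in replicate 1's own ranked list (x axis) and in replicate 2's (y axis), for the 166 genes with a peak in both, coloured by location; dashed lines mark the 90th percentile. Points fill the plane, and nhr-254, nhr-121 and nhr-61 are the 3 genes above both lines.

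Genes in the top 10% of both replicates' own lists numbered 3 of 166 (1.81%): nhr-254, nhr-121 and nhr-61, against 394 of 12105 of all genes (3.25%). nhr-61 ranked lower in the combined list, with a signal of 49.2 (percentile 84.4), next to replicate signals of 37.4 and 33.0. Over the family, the median signal was 34.7, with quartiles of 27.6 and 42.9 and a range of 5.57 to 79.4. For all protein-coding genes the median was 35.4, with quartiles of 27.6 and 44.2. The median percentile of the family was 47.8 in the combined list, 49.4 in replicate 1's and 48.5 in replicate 2's. In the top 10% were 18 of 250 receptor genes (7.20%), against 1810 of 18096 of all genes, and in the bottom 10% 27 (10.8%).

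The weakest peaks were those of nhr-177 at 5.57, nhr-169 at 7.24, nhr-245 at 7.53, nhr-166 at 10.2 and nhr-117 at 11.8. Neither replicate's own list had a peak for nhr-177, nhr-169 or nhr-245. In the combined list, chromosome I stood low in this respect. Of its 23 receptor genes, all with a ranked peak, none was in the top 10% and 6 were in the bottom 10% (26.1%), against 9.50% of all genes there, and the 6 included the pair nhr-73 and nhr-259, which share 1 peak of signal 12.8. The strongest on that chromosome was nhr-49, at 51.0. In the replicates' own lists the receptor genes of I were near the family's level. Their median percentiles were 51.0 (14 genes) in replicate 1 and 47.9 (16 genes) in replicate 2, against 49.4 and 48.5 for the family.

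Receptors with relatives across animals all had a ranked peak, near the middle of the distribution and above the IDR threshold. Of the 13 genes, 10 lay above the median of all genes, the range was 28.1 to 52.2, and none was in the top 10% or in the final list. Their median was 36.8 (percentile 54.3). nhr-91, related to the vertebrate germ cell nuclear factor, was highest at 52.2, with replicate signals of 30.4 and 18.8. nhr-8, a relative of daf-12 that acts in cholesterol balance and responses to foreign compounds, had 47.7, from 17.5 and 23.9. The summit of nhr-8 lay 604 bases upstream, in a coding exon, and nearer to the start of another gene. daf-12, the receptor for bile acid-like dafachronic acids that decides between dauer and reproductive growth, had 42.6 with its summit 42 bases upstream of a start, from 22.9 and 31.9. nhr-41, related to the vertebrate testicular receptors, had 43.8, and nhr-48, a relative of daf-12 and nhr-8, had 40.3. nhr-239 had 36.8 and nhr-111 28.8.

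The list of development, dauer and sex determination shares 6 of its 9 genes with the conserved receptors, among them its highest (nhr-91) and lowest (nhr-6). sex-1, which helps to count X chromosomes in the embryo, had 36.4, and nhr-85, a relative of Rev-Erb in the timing of development, had 35.4 from a summit 998 bases from the start. nhr-67, the tailless relative that acts in the anchor cell and in neurons, had 33.4. nhr-6, related to NR4A receptors and needed for the spermatheca, had 28.1 although its replicate signals, 24.8 and 30.3, were at percentiles of 74.1 and 85.3. nhr-2 had 39.6, nhr-60 38.8 and nhr-40 34.6. Over these 9 genes the median was 36.4 and 6 were above the median of all genes. For the 4 genes of neurons the median was 34.6. unc-55, the COUP-TF relative that sets synapse patterns in motor neurons, had 41.97, but its replicates stood at 8.02 and 32.7. fax-1, a neuron identity gene, had 35.7, and odr-7, which specifies an olfactory neuron, had 27.1.

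Receptors of fat and energy metabolism had a median of 41.5 over 11 genes, with 6 above the median of all genes, 1 in the top 10% and 1 in the bottom 10%. nhr-66, a partner of nhr-49, was highest at 54.6, with its summit in a coding exon 442 bases downstream of a start, and replicate signals of 31.3 and 27.6. nhr-49 itself, an HNF4-like activator of fatty acid oxidation and desaturation, had 51.0, from 27.6 and 32.4. nhr-68 and nhr-10, which together switch on a propionate breakdown pathway, differed, with 50.5 and 31.3. nhr-114, which protects the germ line on some diets, had 42.8, and nhr-80, which promotes fatty acid desaturation, had 41.5. nhr-64 had 46.0, nhr-69 34.5, nhr-13 34.0 and nhr-62, which acts in dietary restriction, 31.6. nhr-31, known for a role in the excretory cell, was lowest at 14.5, with 13.7 in replicate 1 and no peak in replicate 2.

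Receptors of defence, hypoxia and foreign compounds also had a median of 41.5, over 7 genes, of which 5 were above the median of all genes and none in the top 10%. nhr-176, which acts in the response to a foreign drug, had 46.9 with the summit in the promoter, from 28.1 and 27.0. nhr-86, a receptor in pathogen sensing, had 41.5, nhr-112 46.1 and nhr-45 39.4. nhr-57, a gene induced by hypoxia, had 29.0, and nhr-42 had 23.7.

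**Figure D2:**
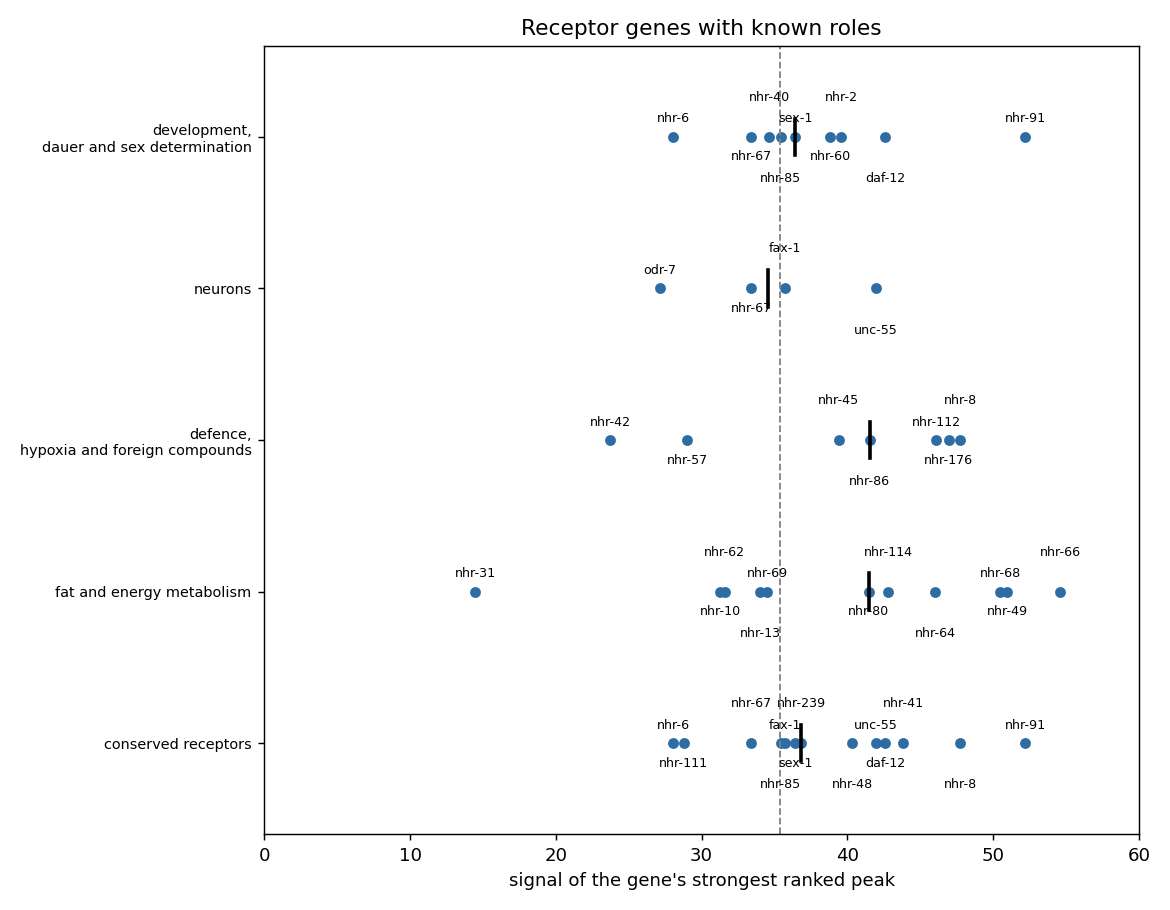
Signal of the strongest ranked peak (x axis) of each receptor gene in 5 lists of known roles (rows); short black bars are list medians and the dashed line is the median of all protein-coding genes, 35.4. Values run from 14.5 (nhr-31) to 54.6 (nhr-66), and a gene with several roles appears in each of its rows.

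Among 11 genes that work with these receptors, 3 were in the top 10% of all genes and 1 had a peak of the final list, as did 1.63% of all protein-coding genes. They were picked for their known links to receptors, and the background is that of all genes. This was cbp-1, the histone acetyltransferase of the CBP and p300 family, with a signal of 162 (IDR 0.000362), its summit 872 bases upstream, and replicate signals of 86.2 and 65.2. fat-6, a stearoyl-CoA desaturase that nhr-49 and nhr-80 control, had 81.8 but an IDR of 0.253, and din-1, the corepressor of DAF-12, had 75.3 with an IDR of 0.0131. The Mediator subunit gene mdt-15 had 50.4. Genes of dafachronic acid synthesis lay near the middle, with daf-9 at 37.2, dhs-16 at 35.8 and daf-36 at 33.0, as did the cholesterol transporter gene ncr-1 at 34.3 and the acyl-CoA synthetase gene acs-2 at 39.8. The other desaturase genes, fat-5 and fat-7, had 33.8 and 29.7.

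Clusters on V were defined as runs of at least 3 receptor genes with neighbouring starts at most 20000 bases apart. There were 17, with 102 receptor genes, of which 92 had a ranked peak. Their median signal was 31.9, against 37.0 for the 62 genes with a peak elsewhere on V and 34.7 for the 96 on other chromosomes. In percentiles, the clusters had a median of 38.7 and all receptor genes outside them 48.9, a difference of -10.2 points. Clusters held 4 of 92 genes in the top 10% (4.35%) and 13 in the bottom 10% (14.1%), where the rest of the family held 14 of 158 in each (8.86%). Clustered genes were lower than all receptor genes outside them in each replicate's own list, with 41.4 against 52.4 in replicate 1 and 34.3 against 53.7 in replicate 2. In replicate 1, receptor genes elsewhere on V stood at 45.63 and those of other chromosomes at 55.03, so the clusters lay nearer to the rest of V. In replicate 2 the order of these 2 sets was the other way, at 59.28 and 48.54, both above the clusters. All protein-coding genes of V were also lower than those of other chromosomes (median percentiles of 46.5 and 51.3), and 51 other genes with a peak inside the cluster spans had a median percentile of 46.9.

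**Figure D3:**
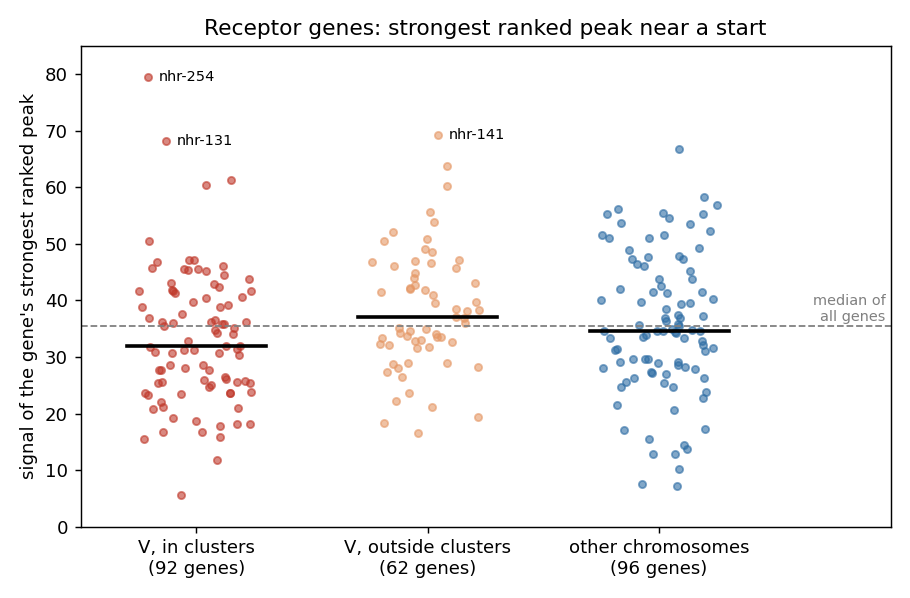
Signal of the strongest ranked peak (y axis) of the 92, 62 and 96 receptor genes with a peak in V clusters, elsewhere on V and on other chromosomes (x axis); each point is a gene, black bars are medians and the dashed line is the median of all protein-coding genes. The ranges overlap almost entirely, and the named points are the 3 genes of the larger final list.

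The size and even the sign of this difference depended on how it was drawn. With more than 1 annotated start, 31 clustered genes had a median signal of 27.7 and 59 genes outside clusters 41.5. With 1 annotated start, the medians were 35.8 over 61 clustered genes and 34.0 over 99 others, and the percentile difference turned to 5.77 points in favour of the clusters. In these genes the median percentile was 55.15 in clusters, 55.83 elsewhere on V (41 genes) and 40.45 on other chromosomes (58 genes). The clusters were thus above the other chromosomes but not above the rest of V. All receptor genes of V against those of other chromosomes differed by 0.141 points. With neighbours up to 50000 bases apart it was -3.84, with any base of a peak in the window -4.35, and in a window of 500 bases -21.5. Among genes of similar GC content at the summit, the medians were 47.9 and 53.4, a difference of -5.54.

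Other properties of the summits moved with the location. Windows of 200 bases at clustered genes had a median GC content of 37.5%, against 39.0% outside clusters. Receptor genes elsewhere on V had 37.75% and those of other chromosomes 39.5%, so the lower value was not particular to clusters. Coding exons held 38.0% of the strongest summits of clustered genes, 20.3% of those of other receptor genes and 27.1% of those of all genes, whereas promoters (500 bases upstream to 200 downstream of a start) held 29.3%, 44.3% and 41.9%. Summits lay at least 500 bases from the start in 58.7% of clustered genes and 44.3% of the others, and genes had 1.46 annotated starts on average in clusters and 1.70 outside. Ranked only among genes with a summit in the same class of sequence, the difference between clusters and the rest was -11.8 points. The part of the distance to the start in the lower signal was not tested. Over the whole family, Spearman's rho between signal and GC content was 0.305 (250 genes, which share the libraries), against 0.331 over all genes.

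The clusters varied among themselves, and in 12 of the 16 with ranked peaks the median lay below that of all genes. The lowest was the group of nhr-263, nhr-148, nhr-147 and nhr-149, with a median of 19.3 over 4 genes, from 16.6 (nhr-148) to 36.2 (nhr-147). The cluster of 7 genes with nhr-177 had a median of 23.6 and reached 41.7 at nhr-179. In the group of nhr-221, nhr-93 and nhr-222 the median was 24.7, from 20.7 (nhr-93) to 37.6 (nhr-221). The highest was the group of nhr-102, nhr-84 and nhr-213, at 45.3, from 36.5 (nhr-84) to 61.2 (nhr-213), followed by that of nhr-254 at 39.8 and the group of 8 genes around nhr-198 at 38.7, from 26.0 (nhr-199) to 47.2 (nhr-198).

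In the largest cluster, of 12 genes within 42919 bases, nhr-131 stood at 68.2 and nhr-106 at 19.2, around a median of 28.4. Clusters of 10 genes each ran from nhr-126 at 15.5 to nhr-103 at 46.8 and from nhr-158 at 17.8 to nhr-185 at 50.4, with medians of 35.7 and 34.9. The cluster of 9 ran from nhr-182 at 20.9 to nhr-226 at 42.9, and a cluster of 7 from nhr-140 at 21.2 to nhr-162 at 45.2. In the smaller ones, nhr-291 at 60.4 stood far above nhr-246 at 18.1. The others ran from nhr-132 (31.3) to nhr-155 (41.9), from nhr-44 (25.3) to nhr-219 (47.2), from nhr-192 (25.1) to nhr-205 (45.6) and from nhr-223 (15.8) to nhr-285 (43.1). In every cluster that had ranked peaks, the highest gene had at least 1.34 times the signal of the lowest. Some spread arises in any group of genes, and no other groups were compared. Spearman's rho between the replicates' signals was 0.224 over 63 clustered genes.

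**Figure D4:**
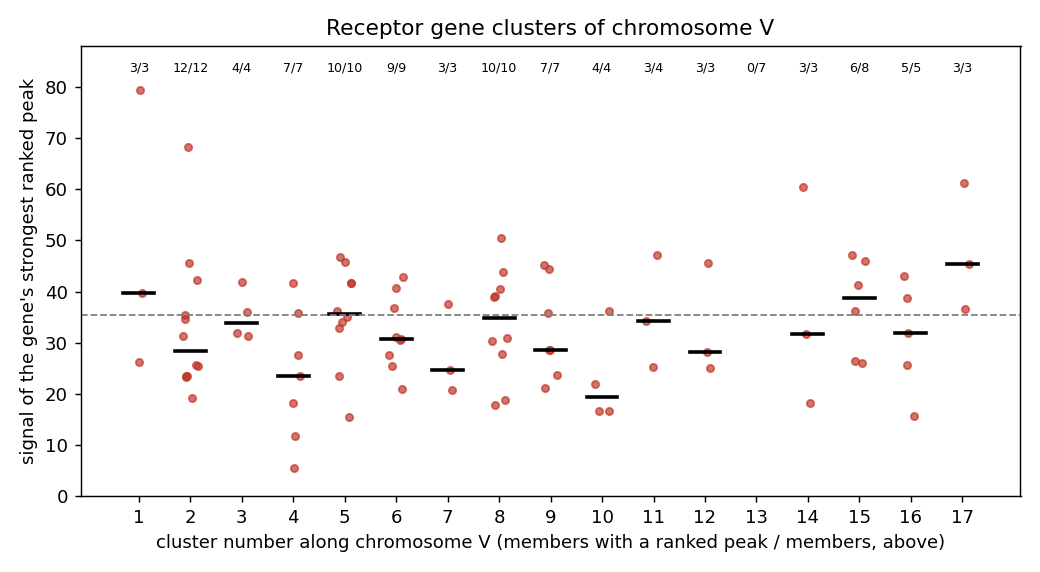
Signal of the strongest ranked peak (y axis) of each receptor gene in the 17 clusters of chromosome V, numbered along the chromosome (x axis); each point is a gene, black bars are cluster medians, the dashed line is the median of all protein-coding genes, and the counts above give members with a peak of all members. Cluster 13 has none of 7, and cluster 10 has the lowest median, 19.3.

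One cluster had no ranked peak at all. Its 7 genes, nhr-206, nhr-208, nhr-207, nhr-209, nhr-154, nhr-153 and nhr-136, all lie on the plus strand within a stretch of 36872 bases, V:12073047-12109919, that holds no summit of the combined ranked list, whose summits were otherwise 598 bases apart at the median. Only 15 stretches without a summit were longer. The 6 other protein-coding genes with all starts inside the stretch had no ranked peak either, which largely follows from drawing it between neighbouring summits. The sequence at the starts of the 7 receptor genes was fully unique. Replicate 1's own ranked list had 11 summits in the stretch and gave 6 of the 7 genes a peak, with signals from 10.1 (nhr-207) to 25.8 (nhr-209), the latter at percentile 78.3. Replicate 2's list had 3 summits there and gave a peak to nhr-208, at 10.8.

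The other 15 receptor genes without a ranked peak were spread over II, III, IV, V and X, with 6 on IV and 6 on V. On IV, 81.8% of receptor genes and 85.6% of all genes had a ranked peak, and on V 92.2% and 91.8%. They were nhr-20, nhr-43, nhr-138, nhr-143, nhr-164, nhr-167, nhr-196, nhr-197, nhr-204, nhr-242, nhr-258, nhr-260, nhr-261, nhr-267 and nhr-274. Of all 22, 7 had no peak in either replicate's own list, and nhr-274 had the strongest of the rest, at 33.8 in replicate 1 (percentile 95.4).

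Short motifs did not set the family's summits apart. TATCGA, searched on both strands within 100 bases of the strongest summit, was found at 25 of 250 receptor genes and at 8.97% of all genes. GAGAGA was found at 9.20% and 11.5%, and a run of 10 T at 2.40% and 3.01%. A match describes the sequence only. Masked repeats covered a median of 23.4% of the bases around the family's summits and 19.9% around those of all genes.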

How the data were processed

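ChIP-seq peak lists of 2 biological replicates of 1 group were used. The authors deposited them on ce11, per the labels; the sources used here name no aligner or peak caller and no scaling of the values. The deposited signal (strength of a peak) and −log10 IDR come from the ranked lists, and the deposited score from the final lists, and lists were compared by percentile. Starts came from Ensembl release 115 (WBcel235), sequence and masking from the RefSeq genome of that build. A gene took its strongest ranked peak with a summit within 1000 bases of a start. Receptor genes and gene lists were chosen with earlier results of these data known, and genes are not replicates, so everything is descriptive and has no p-value. Named genes were those with a final-list peak, the 15 strongest and 5 weakest, members of the lists of roles, and the extremes of each V cluster. Unique sequence was counted in 31-base words. The assignment of peaks was tested on simulated data. Python 3.11.15, pandas 2.3.3, numpy 2.4.6 and matplotlib 3.10.9 were used. Alternatives covered starts, windows, nearby genes, repeats, lists, replicates and cluster definitions.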

Additional observations from a re-analysis of the deposited data

How the results depend on the processing

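No paired analysis was possible because there was only 1 group. The count of 3 receptor genes with a peak of the larger final list, which was also the count of those with a passing ranked peak, lay between 2 and 4 in 7 alternatives each. Both counts were 0 at an IDR of 0.001 and 0 with either replicate left out, where the share over all genes was not counted. At an IDR of 0.05 in the ranked list 10 of 272 receptor genes passed. Of 19973 protein-coding genes, 1362 did so by their strongest peak. The share with a ranked peak (91.9%) was 84.2% in a window of 500 bases and 75.0% to 79.4% with a replicate left out. The median percentile (47.8) moved to 49.3 with only the most upstream start, 51.9 with each peak given to the nearest start, 48.5 in unique windows, 48.6 within the chromosome, 49.9 with genes lacking a ranked peak counted as lowest, 51.2 within bins of GC content and 48.5 to 49.4 with a replicate left out. The difference between V clusters and other receptor genes (-10.2 points) became -21.5 in a window of 500 bases, -3.84 with neighbours up to 50000 bases apart and -19.3 to -11.0 with a replicate left out. It reversed to 0.141 for all of V and to 5.77 for genes with 1 annotated start, and in the other 12 alternatives it moved by less than the replicates' SD of 5.91. Among genes with 1 annotated start, the clusters were above the receptor genes of other chromosomes but not above those elsewhere on V. The alternatives on GC content, class of sequence and number of starts were chosen after seeing the data. The causes were not tested. Depth is unknown, so how far it limits weak peaks cannot be given.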
